A study of Mus musculus with 9 samples.

Results

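Red cell barcodes are droplets of a single-cell library whose RNA was mostly haemoglobin messenger. They were chosen by 2 measured values: at least 500 unique molecular identifiers (UMIs, the counts of distinct captured RNA molecules), with the 4 adult globin genes Hba-a1, Hba-a2, Hbb-bs and Hbb-bt taking over 50% of them. No minimum number of genes was asked for. This gave 518 of the 7435 barcodes with at least 500 UMIs, which is 6.97% (6.40 to 7.57%, exact Clopper-Pearson 95% interval).

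The library came from cells that had entered ascites, the fluid of the peritoneal cavity, in a wild-type B6 mouse model of ovarian cancer. The tumour line is ID8-Def29/Vegf, mouse ovarian cancer cells named for a defensin and a vascular growth factor. The labels give no treatment, age or number of animals for it, and it is 1 library without replicates, so no test between groups was possible and no p-value is given. The series, whose title concerns iron chelation, also has 8 bulk libraries of cultured tumour cells, which were not used here. All intervals below are 95% intervals and cover counting error only.

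Mammalian red cells lose their nucleus and, during the reticulocyte stage that follows, also their mitochondria, ribosomes and remaining RNA. A reticulocyte still carries messenger for the alpha and beta chains of globin and for the last steps of haem synthesis, and the fully mature cell carries very little. Since transcription has ended, the RNA that remains is what the nucleated precursor left behind.

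The 4 adult globin genes are 2 pairs of near-identical copies, and the coding sequences show why the counts of a pair must be read with care. Hba-a1 (ENSMUSG00000069919) and Hba-a2 (ENSMUSG00000069917) encode alpha globin on chromosome 11, and Hbb-bs (ENSMUSG00000052305) and Hbb-bt (ENSMUSG00000073940) encode beta globin on chromosome 7. The stretches shown are centred on the single base at which the members of a pair differ, which is in capitals. They cover coding bases 361 to 401 of the alpha genes and 397 to 437 of the beta genes, counted from 1 at the first coding base.
Hba-a1: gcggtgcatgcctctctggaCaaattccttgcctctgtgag
Hba-a2: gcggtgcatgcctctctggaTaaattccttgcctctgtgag
Hbb-bs: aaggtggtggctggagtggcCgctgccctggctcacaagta
Hbb-bt: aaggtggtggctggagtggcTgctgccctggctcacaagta

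In the GENCODE M21 transcripts, the alpha coding sequences of 426 bases differed by C381T and the beta coding sequences of 441 bases by C417T, the member named first above giving the first base. In the last 300 transcript bases, where a 3′ assay would read, 51.7% of the 98-base windows of Hba-a1 also occurred exactly in Hba-a2, and 43.8% the other way round. The shares were 21.7% for Hbb-bs and 21.2% for Hbb-bt. How the authors' counting assigned reads that match both copies is not given in the sources used here, so the split within a pair may partly be set by it. If such reads were dropped, the split between alpha and beta may be affected too, since the alpha copies share more windows. This was not tested.

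The proximal promoters of the alpha and the main beta gene are shown because their genes supplied most of the RNA. The bases come from the RefSeq promoter table on GRCm38.p6, run 5′ to 3′ on the gene's strand and end at or near the RefSeq start site. Bases that lie in a GENCODE exon are left out, which is why no window is shown for Hba-a1. Capitals mark matches to the promoter motifs spelled out after the sequences, searched on both strands; no matches overlap.
Hba-a2 (chr11:32296372-32296488, plus strand): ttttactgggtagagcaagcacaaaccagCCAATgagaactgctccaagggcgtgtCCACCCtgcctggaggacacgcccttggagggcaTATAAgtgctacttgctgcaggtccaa
Hbb-bs (chr7:103827929-103828011, minus strand): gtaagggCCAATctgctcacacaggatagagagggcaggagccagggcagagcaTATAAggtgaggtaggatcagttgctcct

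Among 32851 RefSeq promoters, 11.8% had the TATA box letters, TATAA, within 120 bases before the start on either strand. The CCAAT box was found in 21.3% of them. The CACCC box, searched as CCACCC, was found in 16.5%. The motif of GATA factors, searched as GATAAG, was found in 3.01% of them and in neither window. Both windows held a TATA and a CCAAT box, and the alpha window also held a CACCC box. The windows shown are 117 bases for Hba-a2 and 83 for Hbb-bs, against 120 for the promoter shares. Other spellings of the motifs were not searched, so a missing match does not mean that a box is absent. The 120 bases before the starts of Hba-a1 and Hba-a2 shared a run of 117 identical bases, whereas the longest run shared by Hbb-bs and Hbb-bt was 14 bases. These letter matches describe the sequence and were not tied to the counts.

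The 518 barcodes had between 501 and 2887 UMIs, with a median of 1006, and between 58 and 542 genes, with a median of 131. The 6917 other barcodes with at least 500 UMIs had medians of 2958 UMIs and 1067 genes. Of the red cell barcodes, 471 had fewer than 200 genes, a limit often used for cells, and 47 had 200 or more. Haemoglobin took from 51.2 to 91.8% of a barcode's UMIs, with a median of 83.2%, and 82.3% of the 555265 UMIs of the 518 barcodes together. There were 11 barcodes between 50 and 60%, and outside the limit 16 barcodes between 40 and 50% and 80 between 10 and 50%. The 5 nearest inside the limit were at 51.2, 52.9, 53.5, 53.9 and 53.9%, and the 5 nearest outside at 49.3, 48.6, 48.6, 48.2 and 48.1%. These values chose the barcodes and are a description. No doublet caller was run on them, and with 1 library no barcode was shared between libraries.

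**Figure D1:**
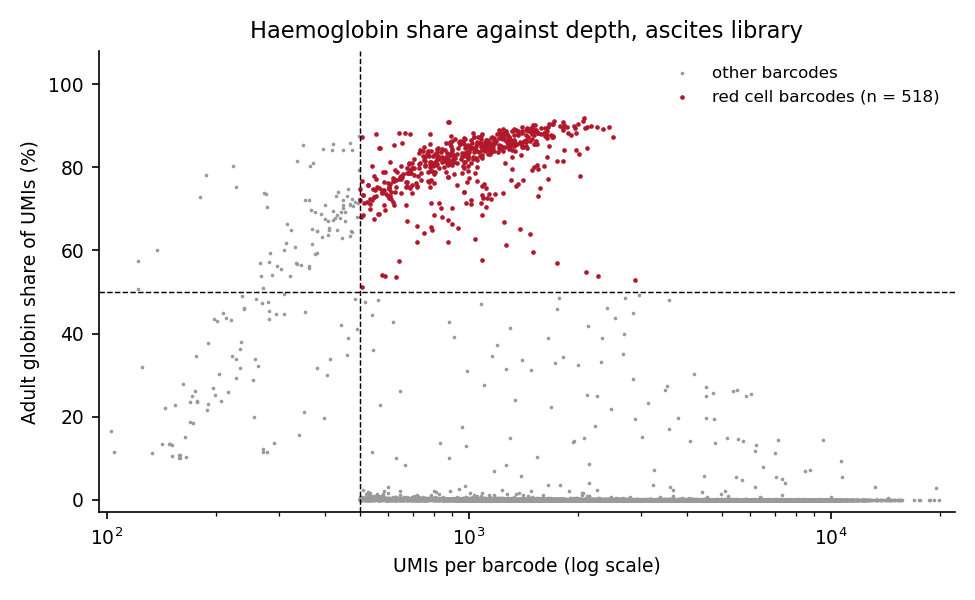
Share of UMIs from the 4 adult globins (percent) against UMIs per barcode (log scale), 1 point a barcode, with the limits of 500 UMIs and 50% as dashed lines. All barcodes with at least 500 UMIs are drawn, and those of 100 to 499 UMIs only where haemoglobin exceeded 10%. Most of the 518 red cell barcodes lie on a rising band between 70 and 90%, and 6764 of the 7435 barcodes with at least 500 UMIs lie under 1%.

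The red cell barcodes held 72.3% of the 632398 haemoglobin UMIs of the whole matrix and 1.55% of its 35733776 UMIs. The non-haemoglobin UMIs of most red cell barcodes lay in a narrow band. A barcode had between 65 and 1360 non-haemoglobin UMIs, with a median of 166 and quartiles of 147 and 195.75, against 260 to 2192 haemoglobin UMIs. For comparison, the 58272 barcodes with 100 to 200 UMIs, whose summed counts serve here as a profile of RNA free in the fluid, had a median of 133 non-haemoglobin UMIs and quartiles of 123 and 143. They are called the low-count barcodes below. Haemoglobin took 0.769% of their 7829300 UMIs, and 5 of them exceeded 50%. The median of non-haemoglobin UMIs was 146 in the 121 red cell barcodes of 500 to 749 UMIs and 214 in the 73 with 1500 or more. Across the 518 barcodes the haemoglobin and non-haemoglobin counts had a Spearman correlation of 0.414, a description over barcodes that share a library.

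All 4 adult globins had UMIs in each of the 518 barcodes. Hbb-bs was the most abundant, with 228629 UMIs, 50.04% of adult globin UMIs, and between 105 and 1472 UMIs per barcode. Hba-a1 had 106927 UMIs (23.4%), Hba-a2 74188 (16.2%) and Hbb-bt 47175 (10.3%). Hbb-bt was the most uneven of the 4, running from 3 to 361 UMIs per barcode with a median of 84.

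Alpha chains made up 39.6% (39.5 to 39.8%) of the adult globin UMIs of the red cell barcodes, an alpha to beta ratio of 0.657. In the low-count barcodes the alpha share was 38.3% (37.9 to 38.6%), a ratio of 0.620, from 60204 haemoglobin UMIs. The difference of the pooled shares was thus small. The intervals did not overlap, but they leave out the spread between barcodes, which was wider than counting error, as described below. In the 183846 barcodes with 1 to 50 UMIs, with a median of 1, the alpha share was 39.9% (38.4 to 41.4%). That interval includes the red cell value. Ribosomal protein and mitochondrial genes took 31.6 and 4.12% of their non-haemoglobin UMIs. Those shares were nearer to the other barcodes with at least 500 UMIs (30.6 and 4.03%) than to the low-count barcodes (38.3 and 0.649%). The barcodes with 1 to 50 UMIs are therefore not taken as a second profile of free RNA. The split between the alpha copies was the same within counting error in both profiles: Hba-a1 took 59.04% (58.8 to 59.3%) of alpha UMIs in red cell barcodes and 59.1% (58.5 to 59.7%) in low-count barcodes. Hbb-bt took 17.1% (17.0 to 17.2%) of beta UMIs in red cell barcodes and 16.6% (16.2 to 16.9%) in low-count barcodes.

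Single barcodes differed far more than these pooled values. The alpha share ran from 20.8 to 63.4% over the 518 barcodes, with a median of 39.6% and an SD of 6.12 percentage points, where counting alone would give an SD of 1.79. The Hbb-bt share of beta ran from 1.49 to 33.2%, with a median of 17.2% and an SD of 5.92 points, against 1.79 from counting. The Hba-a1 share of alpha was much tighter, from 47.3 to 71.6%, with an SD of 4.02 points against 2.88 from counting. The alpha and Hbb-bt shares of a barcode had a Spearman correlation of 0.133, too weak to be a finding.

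**Figure D2:**
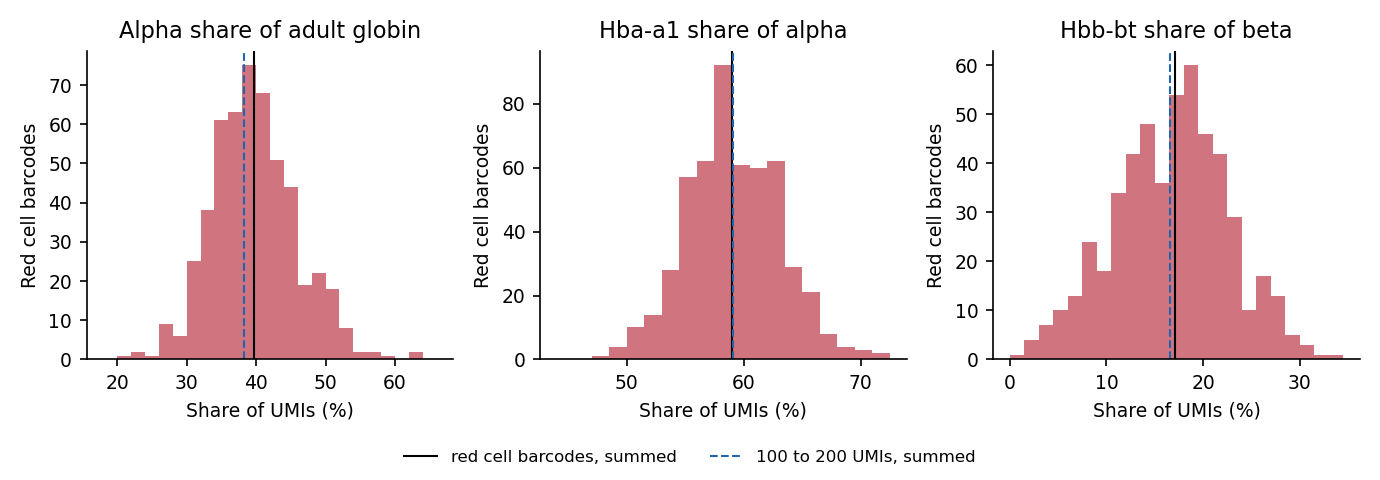
Histograms over the 518 red cell barcodes of the alpha share of adult globin UMIs, the Hba-a1 share of alpha and the Hbb-bt share of beta (percent of UMIs). Solid black lines are the pooled red cell values of 39.6, 59.04 and 17.1%, and dashed blue lines the pooled low-count values of 38.3, 59.1 and 16.6%; single barcodes spread widely around both.

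Other globin genes had few UMIs. Hbq1b, which encodes a theta globin, had 33 UMIs in 33 barcodes, against 3 UMIs in all low-count barcodes. Its level was 869-fold (273 to 4428) higher per non-haemoglobin UMI. Hbq1a had 2 UMIs, the embryonic genes Hbb-bh1 and Hbb-y 1 UMI each, and Hba-x and Hbb-bh2 none. A count of 0 allows up to 30.5 UMIs per 1000000 non-haemoglobin UMIs here, taking 3 counts as its limit.

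The non-haemoglobin transcripts were compared with the summed profile of the low-count barcodes. Levels are rates, UMIs per 1000000 non-haemoglobin UMIs, from 98346 such UMIs in red cell barcodes and 7769096 in low-count barcodes, and ratios have an exact conditional binomial interval. Among 1015 genes with a mean rate of at least 100, 83 (8.18%) were at least 2-fold higher in red cell barcodes, 19 (1.87%) were at 0.5-fold or less, and 913 lay between. With 1 library, passing a fold is a description and not a test. The median ratio was 0.928, with quartiles of 0.782 and 1.12. Across all 1015 genes the rates of both profiles had a Spearman correlation of 0.790, given as a description, since genes are not independent replicates.

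The abundant non-haemoglobin genes had rates close to those of the low-count barcodes. The most abundant was Lgals1, which encodes the lectin galectin 1, with 3108 UMIs and a ratio of 0.782 (0.754 to 0.810). After it came the ribosomal protein genes Rpl41, with 1897 UMIs and a ratio of 1.11, Rpl37 and Rpl37a, and the nuclear RNA Malat1, with 1108 UMIs. The other five most abundant were the ribosomal protein genes Rpl38, Rps29, Rps27, Rps19 and Rpl32, with ratios between 0.895 and 1.16. Malat1, which stays in the nucleus, had a rate of 11266 in red cell barcodes and 9937 in low-count barcodes, a ratio of 1.13 (1.07 to 1.203), and 66534 in the other barcodes with at least 500 UMIs. The 36 barcodes with haemoglobin at 50 to 70% held 410 of the 1108 UMIs, at a rate of 29934, and without them, a choice made after these values were seen, the direction turned, to a ratio of 0.830 (0.769 to 0.894). A Malat1 UMI was present in 73.6% of red cell, 71.7% of low-count and 99.4% of the other barcodes, whose median depths were 1006, 134 and 2958 UMIs. With each barcode thinned to 100 non-haemoglobin UMIs the shares were 56.3, 61.7 and 92.3%, so red cell barcodes did not have the higher share at equal depth. Ribosomal protein genes together took 36.7% (36.4 to 37.0%) of the non-haemoglobin UMIs of red cell barcodes and 38.3% of those of low-count barcodes.

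The 83 higher genes held 8567 UMIs, 8.71% of the non-haemoglobin UMIs, against 1.98% in the low-count barcodes. At the low-count rate they would have had 1945 UMIs. Of them, 27 were at least 10-fold higher and 13 at least 100-fold. The 19 lower genes rested on 5 to 15 UMIs each. The smallest ratio was that of Dynlt1f, which encodes a dynein light chain, at 0.262 (0.0849 to 0.612) from 5 UMIs, followed by the mitochondrial ribosome genes Mrpl34, at 0.323 (0.105 to 0.757), and Mrpl13, at 0.386 (0.141 to 0.843).

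**Figure D3:**
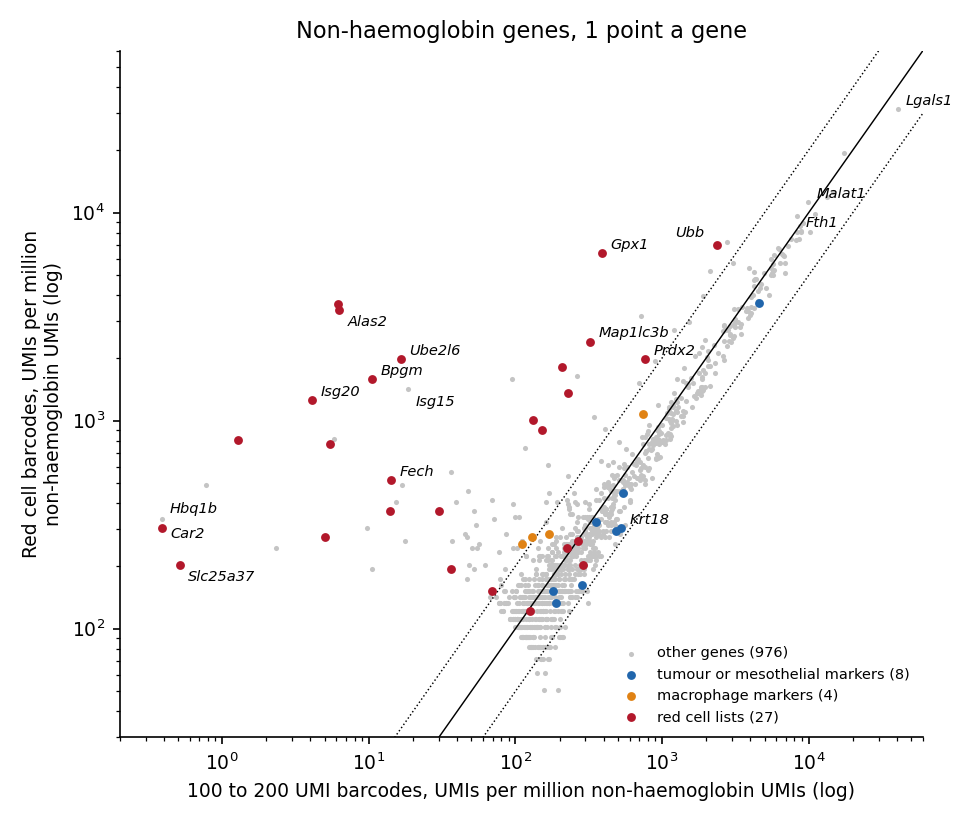
Rate of 1015 non-haemoglobin genes in red cell barcodes (vertical) against low-count barcodes of 100 to 200 UMIs (horizontal), both in UMIs per 1000000 non-haemoglobin UMIs on log scales, with lines at equal rates (solid) and 2-fold (dotted). Most genes follow the solid line, while 23 of the 27 drawn genes of the red cell lists lie above the upper dotted line; each of these genes had to pass a mean rate of 100.

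A set of 4 lists of genes known from red cell development was examined: haem synthesis, membrane and skeleton, enzymes and antioxidants, and late maturation. The lists were chosen with earlier results of these data known, so the shares below describe them and are not an independent check. Of their 68 genes 67 were in the table, 20 had no UMI in red cell barcodes, 29 had at least 10, and 27 reached the mean rate of 100, of which 23 were higher and none lower. That filter favours genes high in red cell barcodes. When members were instead taken by at least 100 UMIs in low-count barcodes, 22 remained, 15 of them at least 2-fold higher, with a median ratio of 4.42. Over all 4248 genes taken in the same way, 7.34% were at least 2-fold higher and the median was 0.880. Summed over the 67 genes, the lists took 4.03% of non-haemoglobin UMIs and were 6.87-fold (6.65 to 7.10) above the low-count level.

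Haem synthesis was led by Alas2, the erythroid form of the enzyme that makes the first compound of the pathway (chrX:150547375-150570638, GRCm38 in GENCODE M21). It had 336 UMIs against 49 in low-count barcodes, rates of 3417 and 6.31, a ratio of 542 (401 to 747). At least 1 Alas2 UMI was found in 232 of the 518 barcodes, 44.8% (40.4 to 49.2%), and never more than 4 in a barcode. The share was 0.0841% in low-count barcodes and 0.911% in the other barcodes with at least 500 UMIs. Thinned to 100 non-haemoglobin UMIs per barcode, which left out 12 red cell and 107 low-count barcodes, the shares were 29.1, 0.0637 and 0.0534%. Alas2 was not part of the rule and so bears on the name given to these barcodes, as does Bpgm below.

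The last enzyme of the pathway, Fech, which inserts iron into protoporphyrin to make haem, was 36.6-fold (25.7 to 51.5) higher with 51 UMIs. Slc25a37, the mitochondrial iron importer mitoferrin 1, had 20 UMIs against 4 and a ratio of 395 (132 to 1589). Urod, a middle enzyme of the pathway, was 5.34-fold (3.17 to 8.50) higher with 19 UMIs. By contrast Alad, the enzyme after Alas2, had a ratio of 0.992 (0.646 to 1.46) and the porphyrin transporter gene Tmem14c one of 0.975 (0.502 to 1.71). Of the 6 members that passed the minimum rate, 4 were higher, and 3 of all 12 members were at 0 UMIs. That minimum can be passed through the red cell level alone. Among the 5 members with at least 100 UMIs in low-count barcodes, 2 were at least 2-fold higher and the median ratio was 0.992, against 0.880 over all 4248 genes with as many, of which 7.34% were at least 2-fold higher.

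Of the 4 red cell lists, membrane and skeleton genes had the highest summed ratio, 50.004 (42.3 to 59.0), from 238 UMIs. The summed rates were 2420 in red cell and 48.4 in low-count barcodes, so the ratio rests on a low level in the latter. Only 1 of the 23 members had at least 100 UMIs in low-count barcodes, and it was at least 2-fold higher. Over all 4248 genes with as many, 7.34% were at least 2-fold higher. Cd24a, a surface antigen of immature red cells, had a ratio of 143 (96.8 to 214), and Epb41, which encodes a skeleton protein, one of 26.3 (17.5 to 38.7). Slc4a1, the band 3 anion exchanger, had 11 UMIs against 4, with a ratio of 217 (64.4 to 935), and Tspo2, a cholesterol transporter of erythroid cells, had 17 against 4. The mean of the red cell and low-count rates did not reach 100 for either of them, so they were not among the 1015 genes. Sptb, a gene of the spectrin skeleton, had 2 UMIs, and 9 of the 23 members had none.

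Of the enzymes and antioxidants, 6 of 7 measured members were higher, against 8.18% of all 1015 genes. Here too the red cell level alone can bring a gene past the minimum rate. By at least 100 UMIs in low-count barcodes 7 members were taken, of which 5 were at least 2-fold higher. Of all 4248 genes taken in that way, 7.34% were at least 2-fold higher. Bpgm, which makes the glycerate compound that lowers the oxygen affinity of haemoglobin (chr6:34476207-34505613), had 156 UMIs against 82, a ratio of 150 (114 to 199). Bpgm was found in 25.5% of red cell barcodes, 0.141% of low-count barcodes and 2.65% of the others, whose median depths were 1006, 134 and 2958 UMIs. Thinned to 100 non-haemoglobin UMIs per barcode, the shares were 15.1, 0.106 and 0.0861%. Car2, a carbonic anhydrase, had 30 UMIs against 3 and a ratio of 790 (246 to 4045). Gpx1, a peroxidase that removes hydrogen peroxide (chr9:108338903-108340343), had 631 UMIs and was 16.4-fold (15.03 to 17.9) higher, at a rate of 6416 against 391. Among the other genes of this list, the ratio was 12.2 (8.34 to 17.4) for Hagh and 7.68 (6.19 to 9.45) for Blvrb, which encodes biliverdin reductase B. Prdx2, which encodes a peroxiredoxin abundant in red cells, had a ratio of 2.59 (2.24 to 2.99). Sod1, a superoxide dismutase, had a ratio of 1.08 (0.691 to 1.61).

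The late maturation list, of ubiquitin conjugation, autophagy and organelle clearance, had 2075 UMIs, the most of the lists. Of its 11 measured members 10 were higher, against 8.18% of all 1015 genes, but red cell level alone can bring a gene past the minimum rate. By at least 100 UMIs in low-count barcodes 9 members were taken, of which 7 were at least 2-fold higher, with a median ratio of 5.90. For all 4248 genes taken in that way the values were 7.34% and 0.880. The ubiquitin-conjugating enzyme genes were higher to very different degrees: Ube2l6 119-fold (94.6 to 150), Ube2o 54.7-fold (32.2 to 91.6), Ube2b 5.90-fold (4.91 to 7.04) and Ube2h 2.21-fold (1.23 to 3.68). Ubb, a gene for ubiquitin itself, had 688 UMIs and a ratio of 2.96 (2.74 to 3.19).

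Autophagy and mitochondrial clearance genes were also higher. Gabarapl2 and Map1lc3b, which encode proteins of the autophagosome membrane, had ratios of 8.66 (7.38 to 10.1) and 7.44 (6.48 to 8.50). Bnip3l, the receptor that marks mitochondria for removal in reticulocytes, was 5.94-fold (4.73 to 7.37) higher. Mitochondrially encoded genes took 0.939% (0.879 to 1.001%) of the non-haemoglobin UMIs of red cell barcodes, against 0.649% in low-count barcodes and 4.03% in the other barcodes with at least 500 UMIs. In the barcodes with 1 to 50 UMIs the share was 4.12% (4.05 to 4.19%), near that of the other barcodes with at least 500 UMIs. The direction thus depended on which barcodes were compared. Without 3 barcodes rich in macrophage UMIs, described below, the red cell share was 0.876%.

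**Figure D4:**
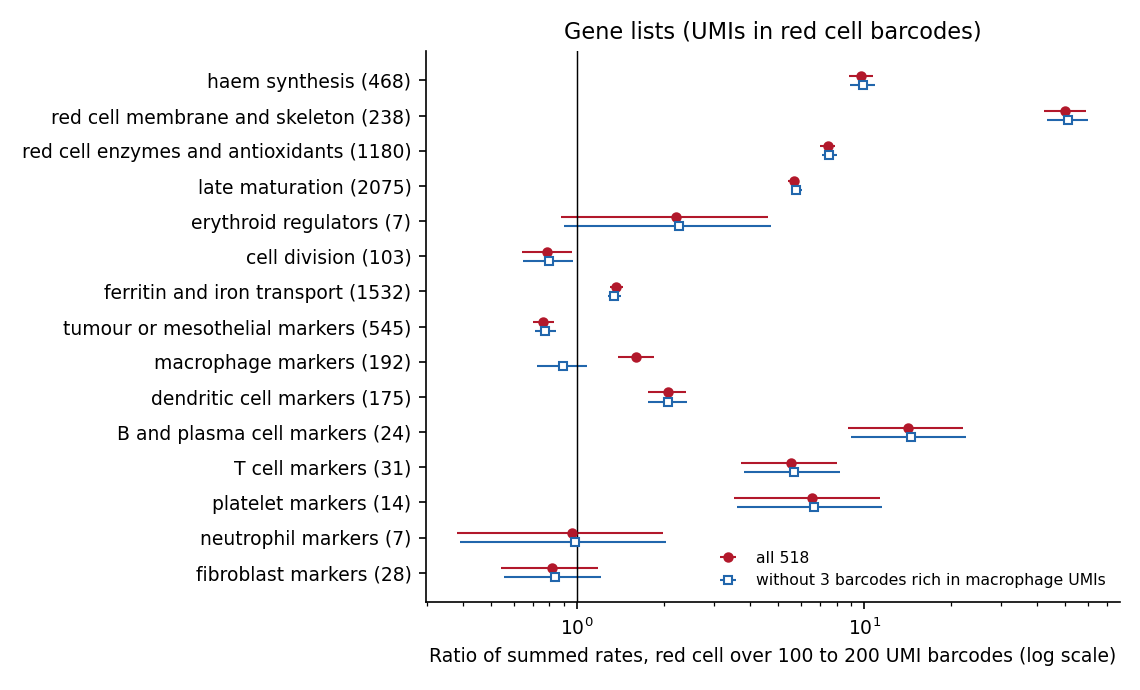
Ratio of the summed rate of each gene list between red cell and low-count barcodes (log scale, bars are exact 95% intervals for counting error, UMIs in red cell barcodes in brackets). Red circles are all 518 barcodes and blue squares leave out the 3 barcodes rich in macrophage UMIs; the 4 red cell lists lie between 5.68 and 50.004, and the macrophage list is the one whose ratio crosses 1, from 1.60 to 0.889.

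Erythroid regulators had few UMIs. Of 10 erythroid regulators, 7 had no UMI, among them the transcription factor gene Klf1 and the erythropoietin receptor gene Epor. The list summed to 7 UMIs, a ratio of 2.20 (0.877 to 4.61) whose interval included 1. In low-count barcodes the whole list had a rate of 32.3, and 1 UMI in red cell barcodes is a rate of 10.2. A count of 0 thus says little of any single member. Lmo2 had 3 UMIs and Nfe2 had 2. The list of 8 cell division genes summed to 103 UMIs, a ratio of 0.787 (0.642 to 0.955). Outside that list Ube2c, a ubiquitin-conjugating enzyme gene of mitosis named here after its values were seen, had 24 UMIs and a ratio of 4.48 (2.84 to 6.76). Tfrc, the transferrin receptor by which immature erythroid cells take up iron, had 2 UMIs.

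Genes that store and export iron showed no common pattern. Ftl1, the light chain of ferritin, had 708 UMIs and was 2.61-fold (2.42 to 2.81) higher, while Fth1, the heavy chain, had 797 UMIs and a ratio of 0.968 (0.902 to 1.04). Hmox1, which breaks down haem, had 16 UMIs and a ratio of 1.07 (0.609 to 1.74). The iron exporter gene Slc40a1 had 1 UMI.

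Some of the highest genes were in none of these lists. Apol11b, an apolipoprotein L gene, had 48 UMIs against 6, a ratio of 632 (270 to 1807), and Fam213a, a redox protein gene, had 80 against 45, a ratio of 140 (96.3 to 207). Smox, which encodes spermine oxidase, had 24 against 18, a ratio of 105 (54.8 to 206). Mkrn1, which encodes a ubiquitin ligase, was 16.6-fold higher with 156 UMIs.

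Isg15, a ubiquitin-like protein gene known for its induction by interferon, had 139 UMIs against 143, a ratio of 76.8 (60.4 to 97.7). Ube2l6, which conjugates it, and Isg20, an exonuclease gene of the late maturation list with 124 UMIs and a ratio of 306 (206 to 467), are interferon-induced too. A list of 26 interferon-response genes, chosen after these values had been seen, had 8 members that passed the minimum rate, and Isg15, Isg20 and Ube2l6 were the 3 at least 2-fold higher. These 3 could pass that minimum through their red cell level alone. Among the 12 members with at least 100 UMIs in low-count barcodes, 2 were at least 2-fold higher and the median ratio was 1.23. Over all genes with as many UMIs, 7.34% were at least 2-fold higher and the median was 0.880. The other five were Ifi27l2a at 0.781 (0.445 to 1.27), Ifitm2 at 0.737 (0.550 to 0.967), Ifitm3 at 1.01 (0.689 to 1.43), Ifi27 at 1.10 (0.693 to 1.65) and B2m at 1.36 (1.04 to 1.75), and 12 of the 26 had no UMI. Isg15 was unevenly spread: 458 barcodes had none, 33 had 1 UMI, and the 27 with 2 or more held 106 of the 139, with up to 14 in a barcode. Ube2l6, with more UMIs in all, had at most 5 in a barcode and was found in 152 barcodes.

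Red cell barcodes of different alpha share differed in their other transcripts. The barcodes were divided at alpha shares of 35.7, 39.6 and 43.3% into 4 groups of 129 or 130, a division made after the spread had been seen, and transcripts were counted per 10000 haemoglobin UMIs. The 4 red cell lists together fell from 110 in the group of lowest alpha share through 95.7 and 82.5 to 57.2 in the highest, a ratio of 1.92 (1.74 to 2.12) between the ends. The median haemoglobin UMIs of the groups were 807, 841, 824 and 795.5. Over single barcodes the alpha share and the list UMIs per haemoglobin UMI had a Spearman correlation of -0.402 and a Pearson correlation of -0.358, values that share the haemoglobin count of a barcode; without the 3 barcodes rich in macrophage UMIs the Spearman value was -0.399.

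The genes did not move alike. Gpx1 stood at 21.9, 15.9, 12.9 and 3.94 UMIs per 10000 haemoglobin UMIs from the lowest to the highest alpha share, 5.56-fold (4.01 to 7.88) between the ends. Prdx2 differed 2.66-fold (1.63 to 4.49) and Ubb 2.14-fold (1.69 to 2.73). The same ratio, lowest over highest alpha share, was 2.29 (1.35 to 4.004) for Isg15, 2.18 (1.18 to 4.19) for Isg20 and 1.71 (1.05 to 2.84) for Bpgm. Alas2 had a ratio of 0.802 (0.573 to 1.12), Ube2l6 of 1.04 (0.692 to 1.56), Map1lc3b of 0.990 (0.682 to 1.44) and Ftl1 of 0.918 (0.748 to 1.13), with intervals that all included 1. Per non-haemoglobin UMI the ratio of Gpx1 was also 5.56. Macrophage UMIs numbered 39, 33, 28 and 92 in the groups, from lowest to highest alpha share, and their part in these differences was not tested.

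**Figure D5:**
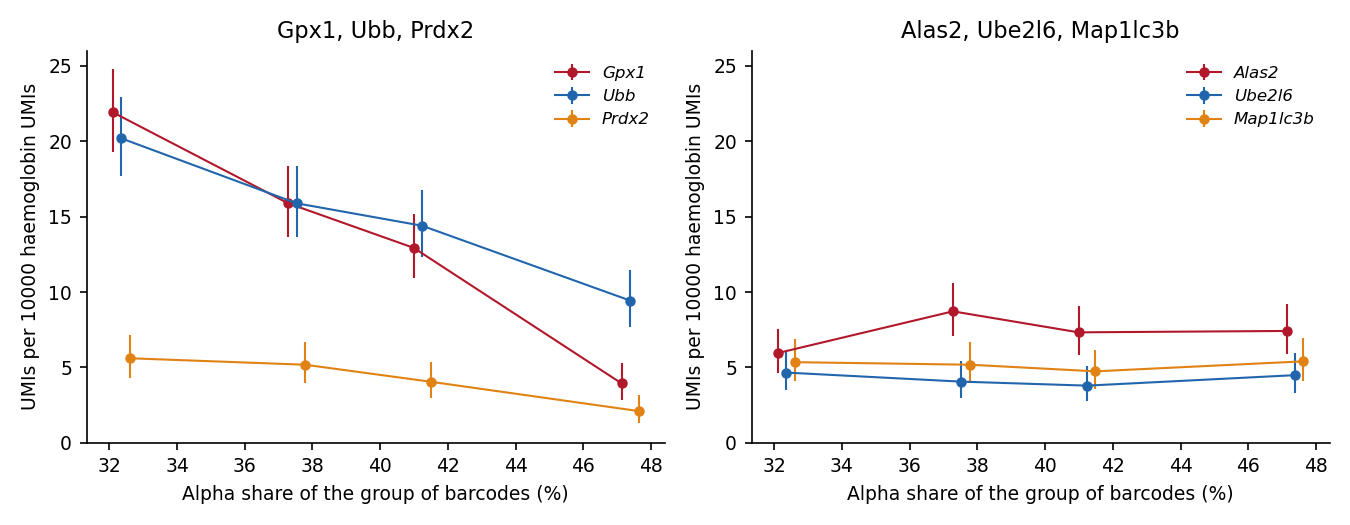
UMIs per 10000 haemoglobin UMIs of 6 genes in 4 groups of the 518 red cell barcodes by alpha share, drawn at each group's pooled alpha share (percent, shifted slightly so that points do not overlap), with exact Poisson 95% intervals. On the left Gpx1 falls from 21.9 to 3.94 and Ubb from 20.2 to 9.43, while on the right Alas2 runs from 5.95 to 7.42 and Ube2l6 from 4.66 to 4.49.

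Depth gave another division of the red cell barcodes. Between barcodes with 1500 or more UMIs and those with 500 to 749, the rate per haemoglobin UMI of Isg15 had a ratio of 8.602 (2.78 to 43.1), from 50 and 3 UMIs. That of Gpx1 was 2.34 (1.70 to 3.30). Alas2 had a ratio of 0.986 (0.680 to 1.45) and Ubb of 1.03 (0.794 to 1.35), while Ftl1 had one of 0.676 (0.533 to 0.859) and Map1lc3b one of 0.632 (0.408 to 0.985). The scale changed this order of deep and shallow barcodes. Per non-haemoglobin UMI the ratio was 1.17 (0.924 to 1.49) for Ftl1 and 1.10 (0.708 to 1.71) for Map1lc3b, with intervals that included 1. On that scale Alas2 had a ratio of 1.71 (1.18 to 2.51) and Ubb of 1.79 (1.38 to 2.34). Isg15 and Gpx1 were higher in the deep barcodes on both scales, with ratios per non-haemoglobin UMI of 14.9 (4.82 to 74.8) and 4.07 (2.94 to 5.73). The alpha share was 40.5% in the shallow and 39.0% in the deep barcodes, and the Hbb-bt share 15.3 and 17.6%.

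Markers of other cells were present at low counts. The tumour or mesothelial list summed to 545 UMIs, 0.762-fold (0.699 to 0.829) of the low-count level. None of its 8 measured members passed the fold in either direction. Over all 1015 genes 8.18% were higher and 1.87% lower, so this count is near the share over all genes. Krt18, a keratin gene, was at 0.578 (0.389 to 0.826). Of the macrophage list 3 of 10 genes were at 0, the defining genes Adgre1, Mrc1 and Cd163, and the list summed to 192 UMIs, a ratio of 1.60 (1.38 to 1.85). In 424 barcodes it had no UMI, in 80 there was 1, in 10 there were 2 and in 1 there were 4, whereas 3 barcodes held 19, 31 and 38. These 3 had 1270 to 2270 UMIs, 281 to 504 genes, and haemoglobin at 53.9 to 61.2%. Without them the macrophage ratio was 0.889 (0.726 to 1.08), and 74 genes in place of 83 were 2-fold higher, all 74 among the 83. Of the 9 lost, Ctss, C1qc, C1qa, Apoe, Ctsd, Psap and Ctsb fell under the fold, and Slc25a37 and Isca1 fell under the level filter with ratios of 384 and 17.8.

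Lymphoid and platelet markers sat in few barcodes, whereas dendritic cell markers were spread over more. All 31 UMIs of the T cell list were Ccl5, with 27 in 1 barcode, and 12 of the 14 platelet UMIs were in 1 barcode. The ratios to low-count barcodes were 5.55 (3.73 to 7.998) for the T cell list and 6.54 (3.503 to 11.3) for the platelet list. The B and plasma cell list had 24 UMIs in 11 barcodes, a ratio of 14.1 (8.76 to 22.0). The dendritic cell list had 175 UMIs in 79 barcodes, with up to 22 in a barcode, a ratio of 2.07 (1.77 to 2.40), and its member Cd74 had 90 UMIs while Cd209a, Siglech and Xcr1 were at 0. The neutrophil list had 7 UMIs and the fibroblast list 28, with ratios of 0.957 (0.383 to 1.98) and 0.816 (0.541 to 1.18). The 36 barcodes with haemoglobin at 50 to 70% held 100 of the 192 macrophage UMIs. The part of second cells in the values of these barcodes was not tested.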

How the data were processed

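The deposited matrix of a 10x Genomics library holds UMI counts per gene and barcode, made by the authors, for 27998 genes and 737280 barcodes. It is unfiltered. Neither aligner nor genome build was stated in the labels. A bulk count table was not used: its 8 columns carry names that match no sample label.

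Counts were summed over barcodes, without normalization other than division by non-haemoglobin or haemoglobin UMIs. Shares have exact Clopper-Pearson, rates exact Poisson and ratios exact conditional binomial 95% intervals; a count of 0 was limited at 3 counts. Genes were compared at a mean rate of at least 100 per 1000000 non-haemoglobin UMIs and a fold of 2. The calculations were checked on simulated data. Tools were Python 3.11.15, numpy 2.4.6, scipy 1.17.1, pandas 2.3.3 and matplotlib 3.10.9.

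The barcodes, gene lists and comparisons were chosen with earlier results of these data known. Named genes were the globins, list members with at least 10 UMIs, the 10 most abundant genes, and the 15 largest and 10 smallest ratios, apart from some that are not reported here; Mkrn1, the genes lost without the 3 macrophage-rich barcodes, and list members with fewer than 10 UMIs were named after their values were seen. The symbols Hbb-bh0, Ahsp, Ighm and Trbc2 were not matched in the table. Alternatives changed the haemoglobin share, depth, gene number, weighting, low-count profile, level filter and fold. Leaving out the barcodes with 10 or more macrophage UMIs was added after seeing the data. Coding sequences are from GENCODE M21 and promoters from RefSeq on GRCm38.p6.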

Additional observations from a re-analysis of the deposited data

Results flagged for a closer look

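A signal lay in data that the comparisons did not use: 82 barcodes with more than 200 and fewer than 500 UMIs also had over 50% haemoglobin. Their alpha share was 44.1% (43.4 to 44.7%) and their Hbb-bt share of beta 12.1% (11.5 to 12.7%), against 39.6 and 17.1% in red cell barcodes, while the Hba-a1 share of alpha was 58.9% (57.9 to 59.9%). Per haemoglobin UMI, Gpx1 was 4.35-fold (2.10 to 10.9) higher in red cell barcodes than in these 82, which had 7 Gpx1 UMIs. Alas2 had a ratio of 0.623 (0.418 to 0.968) on that scale, at 11.8 UMIs per 10000 haemoglobin UMIs in the 82 barcodes and 7.35 in red cell barcodes. Per non-haemoglobin UMI the ratio was 9.09 (4.38 to 22.7) for Gpx1 and 1.30 (0.874 to 2.02) for Alas2, so the direction of Alas2 turned with the scale.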

How the results depend on the processing

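Of 68 values under alternatives, 36 stayed within counting error or within 1.5 times a count, 27 moved further, and 5 crossed a ratio of 1. One was the Malat1 ratio, 0.830 without the barcodes with 50 to 70% haemoglobin. The others were the macrophage ratio: 0.897 with haemoglobin over 80%, 0.860 with fewer than 200 genes, 0.938 against barcodes of 1 to 50 UMIs and 0.889 without the 3 macrophage-rich barcodes. With haemoglobin over 80%, 342 barcodes remained, at 85.9% haemoglobin, with a Hbb-bt share of 17.3%, 42 lower genes, a mitochondrial share of 0.777% and a ribosomal protein share of 36.2%. With at least 1000 UMIs, 262 barcodes remained, at 84.1% haemoglobin, with an alpha share of 39.5%, a Hbb-bt share of 17.7%, 56 lower genes, a mitochondrial share of 1.12%, a ribosomal protein share of 36.1%, a tumour or mesothelial ratio of 0.684 and a macrophage ratio of 2.16. With fewer than 200 genes, haemoglobin was 83.7% and the mitochondrial share 0.756%. With each barcode weighted equally, haemoglobin was 81.2%, the alpha share 39.8%, the Hbb-bt share 16.7% and the mitochondrial share 0.803%. Against barcodes of 1 to 50 UMIs, 58 genes were lower. At a mean rate of at least 30, 269 genes were higher and 167 lower, and at 3-fold 2 were lower. Without the macrophage-rich barcodes the mitochondrial share was 0.876% and the ribosomal protein share 37.0%. The count of red cell list genes that were higher ran from 20 at 3-fold, among 58 higher genes, to 28 at a mean rate of at least 30, among 269. The counts of higher and lower genes are given without the number of genes compared in each alternative, so they are not shares. The cause of these changes was not tested. With 98346 non-haemoglobin UMIs, a gene at a rate of 100 has about 9.83 UMIs, which limits what can be said of low genes. No paired analysis was possible because the comparisons lie within 1 library and come from no test.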
